A study of Caenorhabditis elegans with 2 samples.

Results

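The distal intergenic calls of ROW-1 on the autosomes of Caenorhabditis elegans were 390 of the 30000 chromatin immunoprecipitation and sequencing (ChIP-seq) calls made on both replicates together. A call entered the set when its pooled signal was 50 or higher, and when its summit lay in no protein-coding gene body and outside a promoter window. That window covered the 500 bp before and the 200 bp after every annotated 5' end, whatever the gene type. The calls were thus chosen by signal and position, which are described here without a test. Of the 2158 autosomal calls that reached a signal of 50, the other 1768 lay at coding promoters (1023), in coding gene bodies (344) or at promoters of other gene types only (401). On the X chromosome 167 calls met the same position rule. The distal intergenic calls formed 380 separate regions, because 20 of them overlapped another member.

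The tagged protein was recovered from whole hermaphrodites in L4, the last stage before the adult, 48 hours after synchronization as starved L1 larvae. The strain, OP510, has the genotype unc-119(tm4063) III; wgIs510, and its stable transgene fuses GFP and FLAG to the C-terminal end of row-1 (F37D6.2). The immunoprecipitation used an antibody against GFP, although the antibody field of the labels names F37D6.2. There was 1 group of 2 biological replicates and therefore no contrast. Neither a control library nor another GFP strain was examined here. Whole animals mix all tissues, so a site bound in few cells and a site bound weakly in many cannot be told apart. No distal intergenic call lay near the tagged gene or the unc-119 locus: the closest members were 300701 bp from the middle of row-1 and 85937 bp from the middle of unc-119. Depth is unknown, since the lists hold no read counts, and the intervals given for shares are exact Clopper-Pearson intervals at 95%, which cover counting error only.

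As background, ROW-1 carries C2H2 zinc fingers, a protein fold that often contacts specific DNA letters. Genes lie close together in this worm, and much of the known control sequence sits just upstream of a gene, so elements far from any 5' end are a minority whose partner genes are usually unknown. Runs of alternating G and A are common at open chromatin in animals, and in Drosophila they are bound by the GAGA factor.

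The sequence at the summits showed 2 recurring words. The first, GAGAGA, reads as TCTCTC when the strand is turned. The longer one is GAGACGCAG, or CTGCGTCTC on the opposite strand. The windows below reach 100 bp to each side of the summit, in the build WBcel235 (ce11), and come from RefSeq. Capitals mark every copy of either word on either strand. They are shown as examples from the stronger members, all of them in the optimal list: the strongest member with 1 copy, a strong call with none, 2 strong calls that hold both words, a call with a GA run in its middle, and a long TC run.
cmd-1, chrV:1151410-1151610, plus strand: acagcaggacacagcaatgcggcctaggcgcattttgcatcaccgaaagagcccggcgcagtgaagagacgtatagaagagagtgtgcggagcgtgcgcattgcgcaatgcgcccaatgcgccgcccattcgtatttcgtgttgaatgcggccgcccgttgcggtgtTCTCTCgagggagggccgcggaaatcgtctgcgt
sup-26, chrIII:4282160-4282360, plus strand: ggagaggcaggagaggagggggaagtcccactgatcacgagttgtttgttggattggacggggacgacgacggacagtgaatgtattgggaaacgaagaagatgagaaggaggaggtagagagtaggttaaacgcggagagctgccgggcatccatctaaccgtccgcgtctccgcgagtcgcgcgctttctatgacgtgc
T04C4.3, chrIV:2219543-2219743, plus strand: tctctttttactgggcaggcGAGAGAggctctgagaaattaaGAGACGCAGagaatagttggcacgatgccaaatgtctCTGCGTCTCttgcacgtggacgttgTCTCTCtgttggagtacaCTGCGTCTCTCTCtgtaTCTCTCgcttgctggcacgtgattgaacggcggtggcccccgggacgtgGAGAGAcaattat
hif-1, chrV:20778333-20778533, plus strand: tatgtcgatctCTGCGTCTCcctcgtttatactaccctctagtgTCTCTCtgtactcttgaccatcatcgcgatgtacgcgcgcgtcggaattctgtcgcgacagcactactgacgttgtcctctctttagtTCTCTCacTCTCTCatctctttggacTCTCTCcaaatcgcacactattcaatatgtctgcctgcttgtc
Y54G11A.2, chrII:14251515-14251715, plus strand: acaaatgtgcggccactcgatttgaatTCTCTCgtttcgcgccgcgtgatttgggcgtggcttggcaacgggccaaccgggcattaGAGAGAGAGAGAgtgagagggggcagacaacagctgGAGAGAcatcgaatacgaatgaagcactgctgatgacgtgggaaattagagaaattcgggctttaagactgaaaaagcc
unc-64, chrIII:13275875-13276075, plus strand: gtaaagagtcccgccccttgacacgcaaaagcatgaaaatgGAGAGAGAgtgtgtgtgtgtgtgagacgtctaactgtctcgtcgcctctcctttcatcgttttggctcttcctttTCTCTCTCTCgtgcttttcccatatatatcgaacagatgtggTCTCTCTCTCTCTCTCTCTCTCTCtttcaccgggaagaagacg

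The window 4761 bp upstream of cmd-1, the calmodulin gene, held 1 GAGAGA and no GAGACGCAG. At T04C4.3 there were 6 copies of GAGAGA and 3 of GAGACGCAG, and at hif-1, which encodes the hypoxia-inducible factor, 4 and 1. The window near Y54G11A.2 held 6 overlapping or separate copies of GAGAGA, and that near unc-64, the syntaxin gene of synaptic vesicle release, held 15 and an unbroken run of 24 alternating letters. The window near sup-26, which encodes an RNA-binding protein, held neither word, although its signal of 495 was the second highest.

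Both words were frequent at the summits and rare beside them. GAGAGA lay within 100 bp of the summit in 244 of the 390 distal intergenic calls (62.6%, interval 57.6% to 67.4%). In windows of the same length centred 500 bp to the left and to the right of the same summits, 8.21% and 9.23% held it. Eligible positions are places every 100 bp along the autosomes that meet the same position rule, and 10.4% of these 189514 windows held GAGAGA. GAGACGCAG lay at 96 calls (24.6%, interval 20.4% to 29.2%), against 1.28% in each flank and 1.09% of eligible positions, and within 50 bp of the summit it was held by 14.9% of the calls. Among windows centred 150 bp upstream of all autosomal coding 5' ends, 15.9% held GAGAGA and 2.66% held GAGACGCAG. GAGACGCAG was picked after the summit sequences had been seen, so its share among these calls is a description.

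The words tended to occur together. Of the 96 calls with GAGACGCAG, 83 also held GAGAGA (86.5%), against 161 of the 294 calls without GAGACGCAG (54.8%). The words share letters: a GAGACGCAG that follows the letters GA spells GAGAGA across its start. The same stretch can thus count for both words, and how often it did was not counted. Of the 390, 257 held at least 1 of the words and 133 held neither. Only 12 calls held 2 or more copies of GAGACGCAG. The copy closest to the summit lay a median of 31 bp away for GAGAGA and 35.5 bp for GAGACGCAG. In 50-bp bins the share of calls with GAGAGA was 27.2% in the bin just left of the summit and 3.28% on average beyond 500 bp. For GAGACGCAG the same values were 10% and 0.359%. Both profiles thus had their highest bin at the summit itself.

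**Figure D1:**
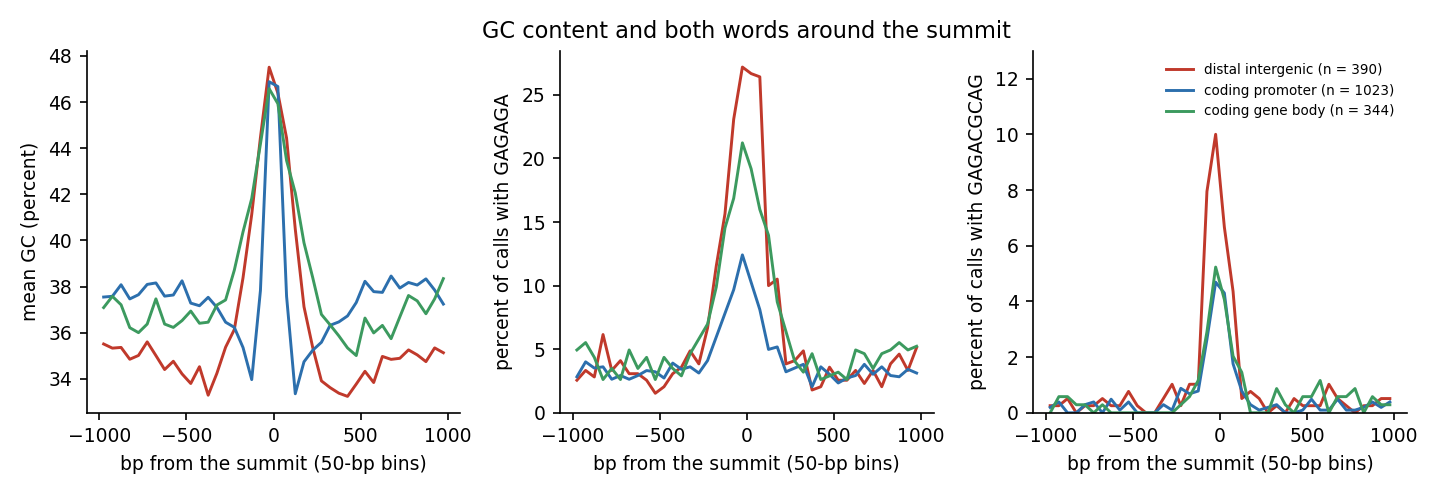
Mean GC content (left), share of calls with GAGAGA (middle) and share with GAGACGCAG (right) in 50-bp bins up to 1000 bp from the summit, for distal intergenic calls (390), calls at coding promoters (1023) and calls in coding gene bodies (344); the GC axis does not start at 0. The distal intergenic line is highest for both words at the summit, at 27.2% and 10%, and its mean GC content goes from 47.5% at the summit to 34.9% beyond 500 bp, against 37.9% and 36.8% there for the other 2 classes.

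The distal intergenic calls held both words more often than the other classes of call did. GAGAGA was present at 37.8% of the other autosomal calls (interval 35.5% to 40.1%), made up of 50% of calls in coding gene bodies, 44.6% of those at promoters of other genes and 31.0% of those at coding promoters. On X, 35.9% of the distal intergenic calls held it (interval 28.7% to 43.7%). GAGACGCAG was present at 11.5% of the other autosomal calls, at 12.5% of those at coding promoters, at 13.1% of those in gene bodies and at 8.98% of the distal intergenic calls on X (interval 5.11% to 14.4%). The intervals of the autosomal distal calls lie above those of each of these classes, but the differences were not tested, and overlapping calls share sequence. GAGACGCAG was picked from the sequences of these same calls, which favours a higher share among them. For that word the gap to the other classes is therefore a description only. When each replicate was used alone, with as many of its strongest nuclear calls (2759), the distal intergenic calls held GAGAGA in 59.9% (replicate 1) and 54.4% (replicate 2), or 57.1% ± 3.87 (SD, n = 2), and GAGACGCAG in 22.4% and 20.4%, or 21.4% ± 1.43 (SD, n = 2). The other classes were not recounted in each replicate alone, so the gap to them is given for the pooled list only. The GAGAGA share from replicate 2 lies inside the pooled-list interval of calls in coding gene bodies (44.6% to 55.4%).

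**Figure D2:**
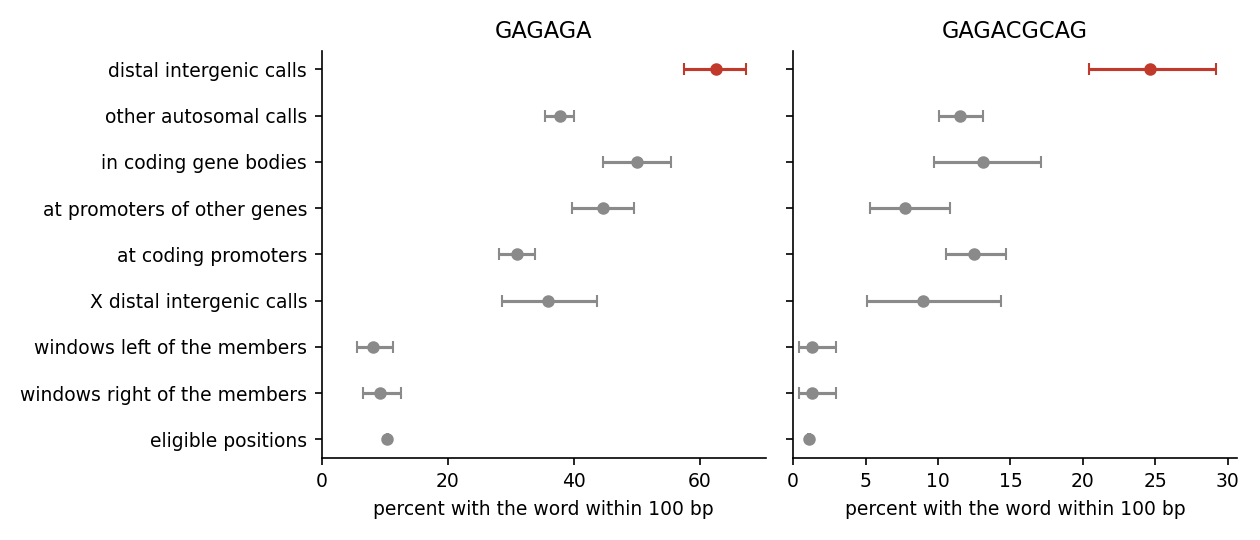
Share of windows within 100 bp of a summit or position that hold GAGAGA (left) or GAGACGCAG (right), with exact Clopper-Pearson intervals at 95%. Calls in coding gene bodies, at promoters of other genes and at coding promoters make up the other autosomal calls. The distal intergenic calls of the autosomes (390) stand at 62.6% and 24.6%, to the right of all other classes, and the windows beside them stand near the eligible positions.

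Base composition also differed between the summits and their flanks. The median GC content within 100 bp of the summit was 46.3% (interval of the median 45.3% to 47.3%), compared with 33.8% and 33.3% in the left and right flanking windows and 33.8% at eligible positions. The other autosomal calls had a median of 44.3%, and the distal calls on X 45.8%. Among the other autosomal calls, those at promoters of other genes only had 48.3%, above the distal intergenic calls. Calls in coding gene bodies had 45.3% and those at coding promoters 41.8%. Repeat-masked letters made up a median of 20.9% of the summit window and 39.6% and 39.1% of the flanks. Within the middle range of GC content of the set, 41.3% to 51.2%, GAGAGA was held by 69.5% of its calls, 43.6% of the other autosomal calls and 18.4% of the eligible positions. For GAGACGCAG the shares in that range were 26.7%, 13.2% and 3.34%. GC content was not matched inside that range, and its part in these shares was not tested.

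Of all 2080 words of 6 letters with strands merged, GAGAGA had the largest gap between summits and flanks. It was followed by AGAGAG, in 54.9% of the summit windows and 8.72% of the flanking ones, AGAGAA (58.5% and 17.3%) and AAGAGA (52.3% and 14.7%). The next were CGTCTC in 41.3% and 6.03%, AGAGAC in 41.8% and 6.92%, ACGCAG in 38.5% and 4.74%, and CGCAGA in 38.2% and 5.26%. Of these, CGTCTC and ACGCAG lie within GAGACGCAG on one strand or the other, and AGAGAC and CGCAGA do not. Many of these words overlap each other, so they are not separate observations. At the other end, AAAATT was in 24.1% of the summit windows and 71.4% of the flanks.

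Core motifs of other regulator families were also counted on both strands. The E-boxes CACGTG and CAGCTG, which basic helix-loop-helix proteins bind, were in 7.18% and 7.69% of the summit windows and in 2.93% and 2.97% of eligible positions. GGGCGG, the GC box of Sp and KLF factors, was in 10% and 3.45%. TCACACN, a half-site of T-box proteins, was in 15.9% and 6.99%. CCACCC, the CACCC box, was in 8.21% and 3.67%. Other motifs were less frequent at the summits than at eligible positions: TGATAA, the core of GATA factor sites, was in 6.15% of the summit windows and 17.1% of eligible positions, TAATTA, the homeodomain core, in 3.08% and 9.64%, and TATAAA, the TATA box, in 10.5% and 22.6%. The run AAAAAAAA was in 11.3% and 24.5%, GAANNTTC, a heat shock element, in 8.46% and 14.9%, CCGGAA, the ETS core, in 4.62% and 8.38%, and AGGTCA, a nuclear receptor half-site, in 3.33% and 5.45%. The remaining 3 were close to eligible positions, with CCAAT in 32.3% and 34.8%, TGANTCA, the AP-1 site, in 6.15% and 5.57%, and GTAAACA, the forkhead site, in 2.56% and 2.52%. The other autosomal calls differed from eligible positions in the same sense for the motifs that follow. They held CACGTG in 4.92%, CAGCTG in 5.54%, GGGCGG in 11.1%, TCACACN in 10.9% and CCACCC in 6.73%. They held TGATAA in 7.92%, TAATTA in 5.94%, TATAAA in 13.1%, AAAAAAAA in 13.2%, GAANNTTC in 10.7%, CCGGAA in 4.69% and AGGTCA in 3.56%. GC content differed between the summits and eligible positions as given above, and its part in these shares was not tested. A match is a match of letters only.

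The signal of the set ran from 50.1 to 946, with a median of 78.3 and quartiles of 62 and 113. The scale of the signal is not given in the sources used here. Its median was 81.0 at the other autosomal calls, 85.6 at coding promoters, 69.7 in gene bodies and 91.6 at the distal calls on X. The 5 members closest to the minimum were the calls nearest to fbp-1 (50.1), cmd-1 (50.1), sipa-1 (50.2), F17C11.12 (50.3) and tsr-2 (50.3). The 5 distal intergenic calls just below it were nearest to C03B8.3 (49.997), K12H6.12 (49.99), B0034.7 (49.98), rad-51 (49.8) and T07E3.2 (49.7). The −log10 q-value was at its maximum of 3.02 for 363 of the 390, so it hardly ranked them. Most calls, 326, had a width of 430 bp.

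Of the set, 213 calls (54.6%) were in the optimal list, the authors' selection by the irreproducible discovery rate, against 55.7% of all autosomal calls at this signal. The optimal list held the 1574 strongest pooled calls, down to a signal of 74.8, so being on it restates the signal and adds no separate evidence.

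Nearly all of the distal intergenic calls had a counterpart in each replicate. Replicate 1 had an overlapping call for 390 of 390 and replicate 2 for 387, where 99.4% of all autosomal calls at this signal had one in both. The 3 without a call in replicate 2 were nearest to ccb-1, a calcium channel beta subunit (pooled signal 68.8), to nduf-7, a subunit of the mitochondrial NADH dehydrogenase (59.3), and to K08D10.11 (50.3). Because the replicate lists held 28339 and 25405 calls, an overlap asks little. A stricter count took only the 2759 strongest nuclear calls of each replicate: 270 calls (69.2%, interval 64.4% to 73.8%) were among them in both, close to the 71% of all autosomal calls, and 346 in replicate 1 and 301 in replicate 2.

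Replicate 1 gave the higher signal at 344 of the 387 calls with both values (88.9%). The median signal was 50.4 in replicate 1 and 32.6 in replicate 2, and the median ratio was 1.51 (0.60 on the log2 scale). At the other autosomal calls that ratio was 1.42 (0.50 on the log2 scale), so most of the offset was shared by both classes. Over the 365 calls whose replicate calls belonged to no other member, the pooled signal was a median of 0.994 times the sum of both replicates, with quartiles of 0.968 and 1.02. The signals of the replicates correlated across these calls with a Spearman coefficient of 0.681 and Pearson's r of 0.773 on the log2 scale (387 calls), and with 0.700 and 0.781 across the 1757 other autosomal calls. These correlations are across calls of the same 2 libraries, and 22 members share both replicate calls with another member.

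**Figure D3:**
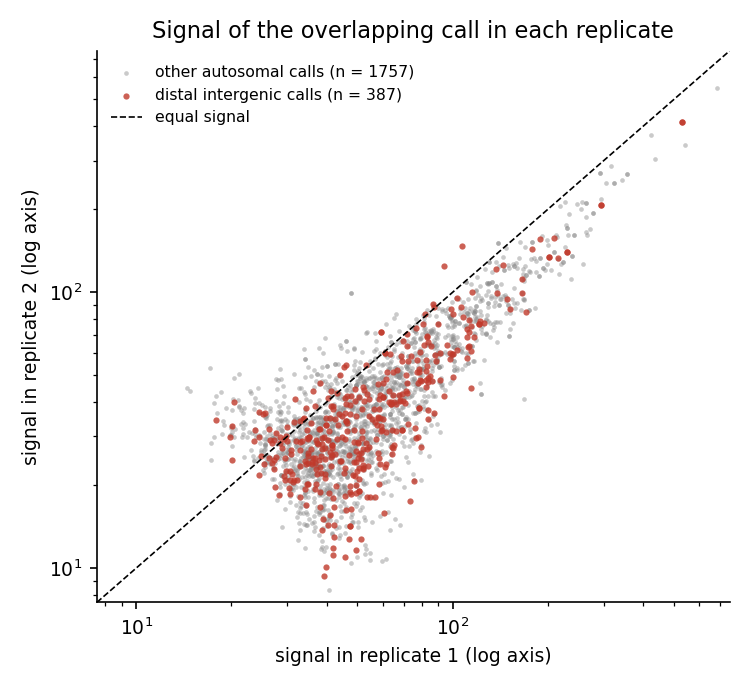
Signal of the overlapping call in replicate 1 (x) and replicate 2 (y), both on log axes, for the 387 distal intergenic calls with a call in both replicates and for 1757 other autosomal calls; the dashed line marks equal signal. Most points of both classes lie below the line, with replicate 1 higher at 344 of the 387 distal intergenic calls.

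The strongest member lay 4761 bp upstream of cmd-1, in an exon of the long intergenic noncoding RNA linc-128. Its pooled signal was 946 (replicate 1 531, replicate 2 414). Its intergenic space of 9769 bp, between cutl-22 and cmd-1, held 3 members. The weakest of these, at 50.1, had its summit in the same interval as the strongest and shared its replicate calls. The call 2036 bp upstream of sup-26 reached 495 (replicates at 295 and 207). At 888 bp upstream of cbp-1, which encodes the CBP/p300 histone acetyltransferase, the signal was 368 (209 and 158). Replicate 1 was the higher at each of these calls.

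The following 3 calls lay on chromosome IV. The space between T04C4.3 and fnip-2, a folliculin-interacting protein gene, held a call of 348 (215 and 132 in replicates 1 and 2), 2787 bp upstream of T04C4.3. A call of 342 (188 and 156) lay between pitr-1, a phosphate transporter gene, and C48A7.16, 3203 bp upstream of the latter. At 515 bp upstream of eel-1, which encodes a HECT-type ubiquitin ligase, the signal was 331 (201 and 134), and a second call of 184 lay 204 bp away, towards ivph-3. This second call overlapped the first, so they are not separate regions. The windows at sup-26 and eel-1 held neither word.

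Among the next were 1 call between the convergent ends of nlp-40, the gene of an intestinal neuropeptide-like protein, and rcor-1, of the CoREST corepressor family, with a signal of 324 (178 and 143). The call 1974 bp upstream of hif-1 had 249, made up of 107 for replicate 1 and 147 for replicate 2. It was 1 of 2 among the 20 strongest at which replicate 2 was the higher. The other was the call 7187 bp upstream of F54F12.1 (213, with 93.5 and 125). The call 1104 bp upstream of mtm-3, a myotubularin lipid phosphatase gene, went the other way, with 170 and 84.8, and the call 558 bp upstream of sor-1, a gene of Hox repression, had 165 and 99.6.

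Other genes nearest to the 20 strongest members were F40E3.3 (371), F58D12.3 (276), F02E9.5 (270), Y54G11A.2 (258, next to the HMG-box gene hmg-1.1), F58D5.5 (241), rpa-2, of the single-stranded DNA binding complex RPA (236), mfb-1 (218, with the ADAM protease gene sup-17 on the other side), wve-1, of the WAVE complex (201), and F53E10.5 (195). Of the 20 strongest, 18 lay upstream of the nearest coding 5' end, 14 held GAGAGA and 7 held GAGACGCAG. Their GC content ran from 38.3% to 60.2%, with a median of 48.3%.

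The calls were spread over many spaces. There were 337 intergenic spaces with a member, of which 290 held 1, 41 held 2 and 6 held 3. Overlapping calls of the same region were counted separately here. An example is the space between sup-26 and R10E4.3, where 2 summits lay 209 bp apart. The widest of those with 3 lay between F54F12.1 and Y39E4B.6 (15313 bp), with signals of 173 to 213 over 7207 bp. Spaces with 3 members also lay between rho-1 and zip-7 (13888 bp, signals 60.1 to 165) and between T23E1.1 and Y67D8B.1 (13883 bp, 50.9 to 130). Others lay between W02D9.4 and dpsm-1 (12550 bp, 54.2 to 107) and between trmt-10C.2 and akap-1 (4973 bp, 63.4 to 78.1). Another member lay within 2 kb of 64 calls (16.4%), which includes members that overlap each other. With 1 call per overlapping region the share was 11.6%. The same share was not counted for other calls. A space held a median of 4945 bp around a call, against 6058 bp around an eligible position.

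The nearest coding 5' end was a median of 1702.5 bp away, with quartiles of 1012 and 3040 bp and a range of 502 to 10866 bp. Eligible positions had a median of 2115 bp. From 500 to 1000 bp there were 96 calls (24.6%, against 19.7% of eligible positions), and beyond 5000 bp 37 calls (9.49%, against 15.3%). The farthest from its gene was the call 10866 bp upstream of egl-27, which encodes an MTA-family chromatin protein. GAGAGA was held by 60.4% of the calls at 500 to 1000 bp, 62.5% at 1000 to 2000 bp, 60.6% at 2000 to 5000 bp and 75.7% beyond, so its share was not lower far from genes.

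**Figure D4:**
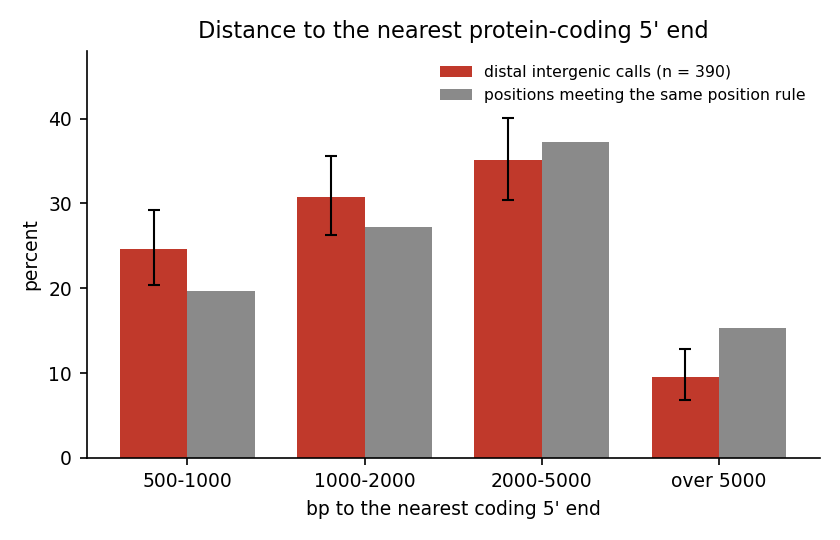
Share of the 390 distal intergenic calls (red, with exact Clopper-Pearson intervals at 95%) and of the positions that meet the same position rule (grey) by distance to the nearest protein-coding 5' end in bp. The share of calls is 24.6% against 19.7% of positions at 500 to 1000 bp and 9.49% against 15.3% beyond 5000 bp.

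The calls lay on the upstream side of genes more often than the eligible sequence did. Of the 390, 321 (82.3%, interval 78.2% to 86%) were upstream of the nearest coding 5' end, compared with 70.1% of eligible positions and 69.5% of the distal calls on X. Each replicate alone gave 83.0% and 80.4%, or 81.7% ± 1.81 (SD, n = 2). By the orientation of the flanking genes, 135 calls (34.6%) lay between divergent, 234 (60%) between tandem and 21 (5.38%, interval 3.36% to 8.11%) between convergent genes. The eligible positions were 30.6%, 55.2% and 14.1%. The rule leaves out gene bodies, which lie downstream of their own 5' ends, and so favours the upstream side in the eligible positions as well. The differences were not tested.

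Along the chromosomes the calls were not evenly dense. Eligible sequence came to 18.96 Mb, or 23.0% of the autosomes, and held 20.6 calls per Mb. Chromosomes I and III had 31.2 and 31.6 calls per eligible Mb (96 calls each), chromosomes II and IV 18.3 and 18 (71 and 63 calls), and chromosome V 11.7 (64 calls). The share of a chromosome's calls that were distal intergenic varied less, from 15.8% on IV to 20.4% on III, with 18.1% over all autosomes. The central 50% of each autosome, where genes are denser, held 225 calls (57.7%, interval 52.6% to 62.6%), compared with 48.8% of the eligible sequence and 61.0% of all autosomal calls at this signal. In eligible sequence this was 24.3 calls per Mb in the middle and 17 in the outer parts, which lie at both ends. The middle density was above the outer one on I, II, III, IV and V, by the least on IV (18.1 and 17.9). Each replicate alone gave 58.4% and 58.0% in the middle.

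**Figure D5:**
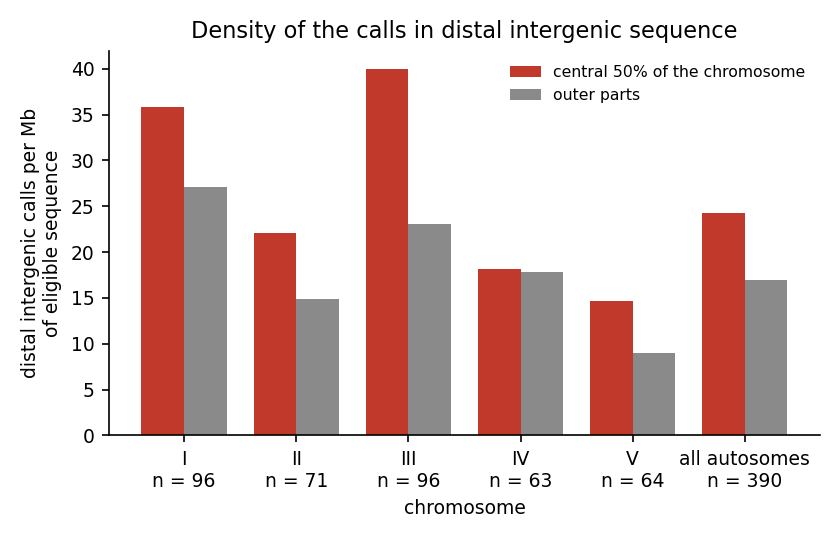
Distal intergenic calls per Mb of eligible sequence in the central 50% (red) and the outer parts (grey) of each autosome, and of all autosomes, with the number of calls under each name. The bars have no error because each is 1 count over 1 length. Chromosomes I and III stand highest at 31.2 and 31.6 over their whole length, and chromosome V lowest at 11.7.

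Calls with the longer word had another distribution. GAGACGCAG was held by 33.3% of the calls in the outer parts (55 of 165, interval 26.2% to 41.1%) and by 18.2% of those in the central 50% (41 of 225, interval 13.4% to 23.9%). GAGAGA was held by 70.9% and 56.4%. Eligible positions held GAGACGCAG in 1.5% of the outer parts and 0.657% of the central 50%, so the word itself was more frequent in outer sequence, while for GAGAGA the order there was the reverse (9.48% and 11.4%). The other autosomal calls held GAGACGCAG in 15.5% and 9.07%. Each replicate alone kept the order: 32.7% and 26.4% in the outer parts and 15% and 16% in the middle for GAGACGCAG, and 64.9% and 60.7% against 56.3% and 49.8% for GAGAGA. By chromosome, GAGAGA ranged from 53.1% of the calls on V to 69.8% of those on I. These shares were compared after the data had been seen and were not tested.

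The median signal was higher at calls with either word than at calls without it, and the intervals of these medians overlapped. Calls with GAGAGA had a median signal of 81.6 and those without 74.3, and with GAGACGCAG the medians were 87.8 and 75.2. In the optimal list 67.1% of the members held GAGAGA and 29.6% GAGACGCAG, against 57.1% and 18.6% of the members outside it. Since the signal chose the set, these values are given as a description.

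A few calls touched noncoding genes. At 10 of the 390 (2.56%, interval 1.24% to 4.66%) the summit lay in an exon of a noncoding gene or pseudogene. The share was 2.40% at the distal calls on X and 13.9% at the other autosomal calls, which include calls at promoters of other gene types. Of the 10 summits, 2 lay in linc-128 and shared their replicate calls. Beside linc-128 the genes were linc-91 (149.6, upstream of chd-7), a pseudogene, WBGene00018862 (135), the noncoding gene srpr-2.1 (124), linc-136 (91.7), T02E9.15 (83.4), R13H4.11 (68.7), K11D9.8 with linc-129 (59.8) and F55A12.13 (57.4), with the pooled signal in parentheses. Within 1 kb, 58 calls had a noncoding 5' end: 36 of a noncoding RNA gene, 10 of a piRNA, 5 of a lincRNA, 5 of a snoRNA and 2 of a pseudogene. The rule kept these summits outside the promoter windows of those genes. The count within 1 kb has no count for other calls beside it here.

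The 355 protein-coding genes nearest to a member were 2.06% of the autosomal ones (17242), and 656 flanked a member on either side (3.8%). Of the 355, 323 were nearest to 1 member, 29 to 2 and 3 to 3. Nearest here is a rule of position, and no expression data link a call to a gene. Gene families were read against that 2.06%. The lists are short, and the counts carry wide intervals.

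In the families of development, 3 of 69 homeobox genes were nearest to a member: ceh-20, a PBX-type cofactor of Hox proteins (74.2), ceh-22, a regulator of pharyngeal muscle (60.1), and ceh-58 (51.6). Of 247 nuclear hormone receptor genes there were 3, nhr-88 (194), nhr-20 (148.6) and nhr-258 (53.1). Of 13 heterochronic genes, which time larval cell fates, there were 2. The RNA-binding protein gene lin-28 had a call 557 bp upstream with a pooled value of 129.7 (replicates at 77.3 and 51.4), and lin-41, a TRIM-NHL protein gene that the let-7 microRNA targets, had one 1529 bp upstream with 128 (78.0 and 52.5). Their signals lay above the median of the set in the pooled list. The list of 13 has an interval of 1.92% to 45.4%, which includes the 2.06% of all genes.

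Of 38 T-box, GATA, Sox and forkhead genes 2 were nearest to a member, the FOXO gene daf-16 (91.0, 4526 bp downstream of its 5' end) and egl-27 (86.7), and of 31 bHLH genes 1, hif-1. Of 27 Wnt pathway genes 2 were nearest to a member: kin-19, a casein kinase (109.8), and wrm-1, a beta-catenin (51.8). Among 33 TGF-beta and Notch genes there was 1, tig-3 (64.2), and among 21 genes of vulval induction and Ras signalling none, which allows a share of up to 16.1%. Of those 21, 3 flanked a member.

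Among genes of neurons, 4 of 61 axon guidance and adhesion genes were nearest to a member: the kinase gene unc-51 (152), zig-1 (87.1), mig-17, a secreted metalloprotease (54.9), and unc-33, of the CRMP family (52.8). Of 180 ion channel and receptor genes there were 4: the acetylcholine receptor subunit unc-63 (90.5), the potassium channels slo-1 (82.5) and twk-2 (70.8), and ccb-1 (68.8). Of 109 neuropeptide and insulin-like genes 1 was, nlp-40, whose product is described above as intestinal. All 3 intervals (1.82% to 15.9%, 0.609% to 5.59% and 0.0232% to 5.01%) include 2.06%.

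Of 1331 chemosensory receptor genes, a family that fills much of the chromosome arms, 4 were nearest to a member (0.301%, interval 0.0819% to 0.768%): sri-5 (118), srab-24 (77.1), str-206 (61.3) and srw-60 (52.7). This interval lies below the 2.06% of all autosomal genes, without a test. Of 148 collagen genes 3 were nearest (col-108 with 64.9, col-50 with 62.2 and dpy-10 with 51.4), or 2.03%. None of 81 cytosolic ribosomal protein genes and none of 79 histone genes was, which allows shares of up to 4.45% and 4.56%.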

How the data were processed

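Peak lists from anti-GFP ChIP-seq of 2 biological replicates were used: 1 list per replicate, 1 pooled list and the optimal list. Per the deposited file listing they are in narrowPeak format on ce11 (ce10 lists were not used), and each derives from alignments and 1 further file. The aligner, the caller, their settings, the IDR threshold and the signal scale were not given in the sources used here. A signal is the value per peak that the authors deposited and was used to filter, rank and describe calls. The −log10 q-value was also deposited by the authors. Depth is unknown.

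Gene models came from Ensembl (release 115) and sequence from RefSeq (WBcel235), whose X length of 17718942 equals the end of the last call on X. A replicate counterpart is the strongest call overlapping by 1 bp. Words were sought on both strands within 100 bp of the summit. Genes were named by a rule: those flanking the 20 strongest members, up to 4 members per gene list, 5 calls on each side of the signal minimum and up to 2 noncoding exons per gene type. The remaining noncoding exons, spaces with 3 members, calls missing in replicate 2 and long repeat runs were named after their values were seen. The members and all 15 gene lists were chosen with earlier results of these data known. Alternatives were other windows, signals, lists and overlaps. Scripts were tested on simulated data and used Python 3.11.15, numpy 2.4.6, pandas 2.3.3 and scipy 1.17.1.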

Additional observations from a re-analysis of the deposited data

How the results depend on the processing

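Of 300 alternative values over 46 results, 233 stayed within the interval of the reported value, or within 1.5 times for a count, and 67 moved beyond it. None reversed, but these results are counts, medians and shares of the set itself, which have no direction to reverse. No contrast with the other calls or with eligible positions was recomputed under the alternatives. The number of calls depended on the rule: it was 614 with only coding 5' ends, 646 with a promoter window of 250 bp upstream to 100 bp downstream, 213 in the optimal list only, 120 with a signal of at least 100, 380 with 1 call per overlapping region (added after the data were seen) and 388 to 411 when either replicate was left out. With a window of 1000 bp upstream to 500 bp downstream it was 267. It was 295 when the whole peak had to lie outside gene bodies and promoter windows, so the remaining members reach into one of these. Median GC content was 47.5% within 50 bp, 47.8% in the optimal list, 44.8% with the narrow promoter window and 48.8% at a signal of at least 100. Median distance to a coding 5' end was 1060 bp with the narrow window, 2245 bp with 1000 bp upstream to 500 bp downstream and 2023 bp with the whole peak outside genes and windows, which the rule itself sets. The share with GAGAGA was 43.8% within 50 bp, where fewer letters are searched, 53.7% with the narrow window, 67.5% at a signal of at least 100, and 54.4% to 59.9% when either replicate was left out. The share with GAGACGCAG was 14.9% within 50 bp, 19.9% with only coding 5' ends, 29.6% in the optimal list, 30% at a signal of at least 100 and 20.4% to 22.4% when either replicate was left out. The share in the central 50% was 52.5% at a signal of at least 100, and the cause was not tested. At that signal 100% were in the optimal list, by its construction. Counterparts in both replicates fell to 91.3% when 50% of each call had to be shared. No paired analysis was possible because there is 1 group only. Counts of list genes were also made for both flanking genes.

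The limits are the same for every share: there is no control library here, the depth is unknown, an SD over 2 replicates is imprecise, and members that overlap or share a replicate call are not independent. Sites that yield signal with any GFP-tagged protein were not separated from those of ROW-1. For the calls chosen from 1 replicate alone, the share in the optimal list and the median signal were not computed.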
